A study of Homo sapiens with 6 samples.

Results

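The HOX and other developmental homeobox genes were followed in CAOV2 human ovarian cancer cells after silencing of TAZ. The set holds every gene of the deposited table whose symbol is HOXA, HOXB, HOXC, HOXD, PBX, MEIS, PKNOX, TGIF, IRX, DLX, LHX, MSX or EMX followed by a number, and the numbered sine oculis homeobox genes, without antisense genes. It came to 65 of the 17211 genes in the table, 38 of them HOX genes. RefSeq has 80 protein-coding genes with such names. The other 15 are not listed in the table: HOXB1, PKNOX2, IRX1, IRX2, IRX4, IRX6, SIX6, DLX5, LHX1, LHX2, LHX5, LHX8, LHX9, EMX1 and EMX2. The table holds no gene at 0 in all libraries and 7 genes with a mean under 1, and nothing states by which rule genes were listed, so no level is given for these 15.

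Polyadenylated RNA was sequenced in 3 libraries of cells given an siRNA that targets TAZ (siTAZ) and 3 libraries of cells given a non-targeting siRNA (siNT). Each transfection used 100 pmol of siRNA on 100000 seeded cells, lasted 2 days and ended in collection on day 3. The siRNAs came from different suppliers, so an effect of the siRNA product and one of TAZ loss cannot be told apart, and the labels give 1 siRNA product against TAZ. CAOV2 appears in the labels as a cell line and also as a primary cancer cell. The libraries are named biological replicates, but no separate cultures are recorded, and the p-values then measure only the spread among these libraries, which may be technical.

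Homeobox genes encode transcription factors that bind DNA through a homeodomain and set regional identity in the embryo. HOX genes lie in the clusters HOXA, HOXB, HOXC and HOXD on chromosomes 7, 17, 12 and 2, numbered from the 3′ end (anterior identity) to the 5′ end (posterior identity), and genes with the same number are paralogues. HOX proteins bind DNA together with the PBX, MEIS and PKNOX proteins of the TALE class, and the posterior HOXA genes are known for patterning the Müllerian duct, from which much of the female reproductive tract forms. WWTR1 encodes TAZ, which the Hippo pathway restrains and which activates genes through TEAD factors.

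Values are the deposited ones, that is reads divided by the size factor of the library. The libraries held 28458503 to 34488196 reads in siTAZ and 25478595 to 28928432 in siNT. WWTR1, the siRNA target, stood at 242, 277 and 279.7 in the siTAZ libraries, against 4359, 4217 and 4258 in the siNT libraries, 16.1-fold lower (-4.0 in log2 with SE 0.06, adjusted p = 8.0e-17 in limma). Of 11 genes that mark epithelium and ovarian carcinoma, 8 were listed. Of these, 4 were higher in siTAZ, among them EPCAM at 1361 ± 42 in siTAZ against 501 ± 10.3 in siNT and KRT8 at 39346 ± 1316 in siTAZ against 35206 ± 1349 in siNT (mean ± SD, n = 3, as throughout), and 2 lower, KRT7 at 8604 ± 879 in siTAZ against 22847 ± 1266 in siNT and KRT18 at 22365 ± 1129 in siTAZ against 27495 ± 1133 in siNT. PAX8 averaged 18.2 in siTAZ and 28.8 in siNT, MUC16 averaged 7.98 in siTAZ and 11.9 in siNT, and WT1, WFDC2 and ESR1 were not listed. None of 5 endothelial markers was listed, nor were the leukocyte genes PTPRC and CD3E, while the 3 of 6 leukocyte markers that were listed summed to 175 to 193 in siTAZ and 130 to 141 in siNT. Of 9 fibroblast markers 6 were listed, with summed values of 6614 to 7502 in siTAZ and 5609 to 6399 in siNT, of which LUM, not called, made up 3885 on average in siTAZ and 3797 in siNT. COL3A1 (2.13-fold), PDGFRA (1.36-fold) and PDGFRB (3.39-fold) were higher in siTAZ, and COL1A2 was lower, at 1.3 ± 1.14 in siTAZ against 12.6 ± 2.69 in siNT. Of 5 mesothelial markers 3 were listed, 1 of them higher and 1 lower, with sums of 28.4 to 47.8 in siTAZ and 62.0 to 81.0 in siNT. The part of these markers in the results was not tested.

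Homeobox genes moved in both directions. All 65 members passed the filter on low values, a mean of at least 1. In limma, with p-values adjusted over all 17204 genes tested and a threshold of 0.05, 27 members were higher and 18 lower in siTAZ, and 20 did not pass. These are 69.2% of the members, beside 55.8% of all genes tested (28.3% higher and 27.5% lower). Among the 50 members with a mean of at least 100, 39 were called (78%), 22 higher and 17 lower, beside 66.1% of all genes at that level (32.5% higher and 33.7% lower). In RNA from whole cultures, fewer cells that express a gene and less of its RNA per cell cannot be told apart. The groups did not overlap in 48 members, 73.8%, beside 61.4% of all genes. The members' median log2 fold change was 0.17 and the median of its size 0.32, beside -0.001 and 0.31 over all genes. Changes of at least 0.5 in log2 with a mean of at least 10 were called in 15 members, 23.1%, beside 23.9% of all genes, so changes of this size were about as frequent among the homeobox genes as in the table as a whole.

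**Figure D1:**
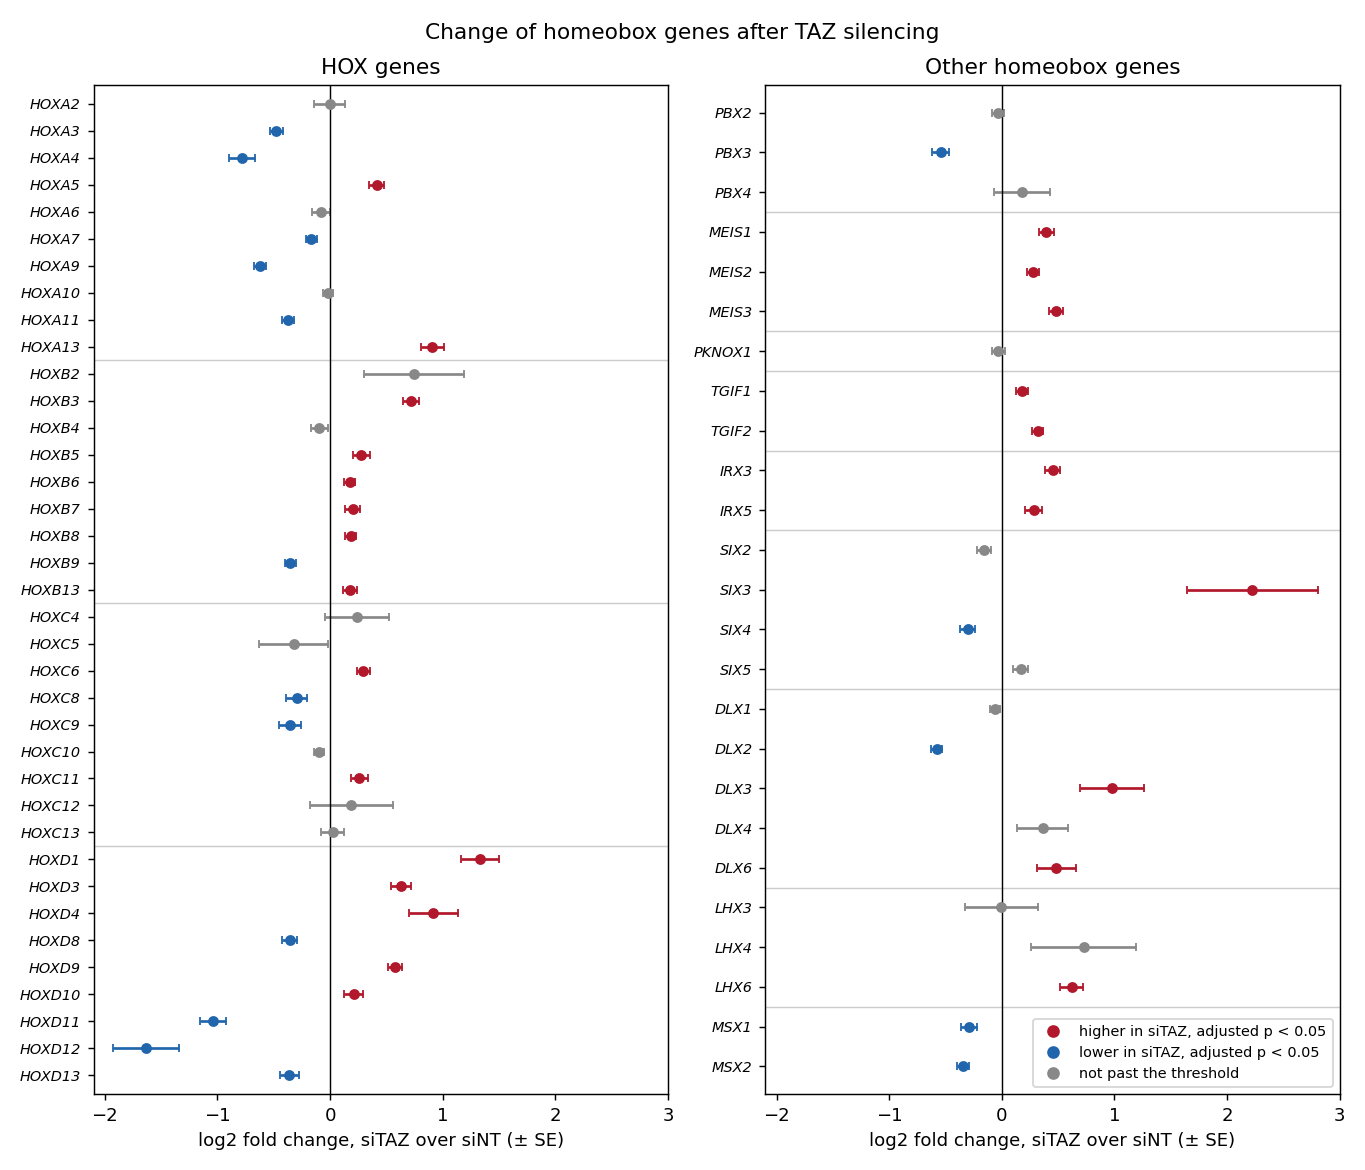
Log2 fold change (siTAZ over siNT, horizontal axis) of 62 of the 65 members with its SE, from limma on log2(value + 1) with 3 libraries per group; the HOX genes are on the left and the other families on the right. The colour gives the call (higher in siTAZ, lower in siTAZ or not past the threshold), and among the genes drawn HOXD12 is the lowest at -1.64 and the scarce SIX3 the highest at 2.22.

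Every listed gene of the HOXD cluster was called, although the call of HOXD10 was lost in some alternatives. Of the 9 HOXD genes, 5 were higher and 4 lower in siTAZ, and no gene's groups overlapped. Over all genes tested, 55.8% were called and 61.4% had groups that did not overlap. The 3′ genes HOXD1, HOXD3 and HOXD4 were higher, HOXD8 was lower, HOXD9 and HOXD10 were higher, and the 5′ genes HOXD11, HOXD12 and HOXD13 were lower. HOXD1, the most 3′ gene of the cluster, had values of 80, 83.5 and 71.6 in the siTAZ libraries, against 30.4, 32.1 and 29 in the siNT libraries. Each siTAZ library was above every siNT library, and the mean rose 2.57-fold (1.33 in log2 with SE 0.17, adjusted p = 3.2e-06 in limma). HOXD4 had values of 37.4, 48.6 and 41.8 in the siTAZ libraries, against 26.2, 22.4 and 18.1 in the siNT libraries. The rise was 1.92-fold and the lowest siTAZ library still lay above the highest siNT library (0.91 in log2 with SE 0.22, adjusted p = 0.0018 in limma). HOXD3 had values of 352, 344 and 305 in the siTAZ libraries, against 217, 217 and 210.3 in the siNT libraries and rose 1.56-fold (0.63 in log2 with SE 0.09, adjusted p = 1.1e-05 in limma).

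HOXD9 was the most abundant gene of its cluster per length of exon, and its level rose. Its values were 1138, 1045 and 1068 in the siTAZ libraries, against 709, 738 and 734 in the siNT libraries, a rise of 1.49-fold (0.58 in log2 with SE 0.06, adjusted p = 3.9e-07 in limma). HOXD10, its neighbour, averaged 423 ± 25.1 in siTAZ against 366 ± 30.2 in siNT (0.21 in log2 with SE 0.08, adjusted p = 0.041 in limma). That call was lost with DESeq2 (adjusted p = 0.078) and without siTAZ replicate 2 or 3 or siNT replicate 2 or 3 (adjusted p of 0.076 to 0.18).

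HOXD11 and HOXD12, which help to pattern the distal limb, went the other way. HOXD11 had values of 158, 190.0 and 225 in the siTAZ libraries, against 385, 363 and 424 in the siNT libraries. It fell 2.05-fold, with all siTAZ libraries low (-1.04 in log2 with SE 0.11, adjusted p = 6.7e-07 in limma). HOXD12 was scarce, with 9.35, 9.18 and 15.4 in the siTAZ libraries, against 26.2, 50.2 and 36.3 in the siNT libraries. The fall was 3.33-fold, without overlap (-1.64 in log2 with SE 0.29, adjusted p = 0.00014 in limma), and its size depends on the pseudocount, with -1.14 for a pseudocount of 10 in place of 1. HOXD13, required for digit formation, averaged 284 ± 15.7 in siTAZ against 366 ± 15.3 in siNT, and HOXD8 488 ± 22.5 in siTAZ against 625 ± 8.1 in siNT, and both were called (log2 fold changes -0.36 and -0.36).

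Sequence around the start site is shown for HOX genes with large called changes, because genes of the same cluster went opposite ways. The neighbours HOXD11 and HOXD12, both shown, went the same way. The rule was a called log2 fold change of at least 0.75 in size and a mean of at least 10, which took 8 members, and RefSeq windows were at hand for 6 of them. Each window runs 5′ to 3′ on the strand of the gene, from 250 bases before the start site to 50 after it, in build GRCh38.p14 and not the hg19 of the deposited table. Capitals mark matches, on either strand, to GGAATG (the TEAD motif), TGANTCA (AP-1), TGATNNAT (HOX with PBX) or TGACAG (MEIS). No 2 of these matches overlap in the windows shown. The windows lie at chr2:176188418-176188717 (+ strand) for HOXD1, chr2:176151300-176151599 (+ strand) for HOXD4, chr2:176107030-176107329 (+ strand) for HOXD11, chr2:176099545-176099844 (+ strand) for HOXD12, chr7:27130708-27131007 (- strand) for HOXA4 and chr7:27200042-27200341 (- strand) for HOXA13. The genes HOXD1, HOXD4 and HOXA13 were higher in siTAZ, and HOXD11, HOXD12 and HOXA4 lower.
HOXD1: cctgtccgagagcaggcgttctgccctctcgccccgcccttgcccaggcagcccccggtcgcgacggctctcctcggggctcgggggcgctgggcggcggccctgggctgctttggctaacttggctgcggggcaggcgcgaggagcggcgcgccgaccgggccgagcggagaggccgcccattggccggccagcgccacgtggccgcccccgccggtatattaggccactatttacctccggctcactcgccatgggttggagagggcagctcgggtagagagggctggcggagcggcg
HOXD4: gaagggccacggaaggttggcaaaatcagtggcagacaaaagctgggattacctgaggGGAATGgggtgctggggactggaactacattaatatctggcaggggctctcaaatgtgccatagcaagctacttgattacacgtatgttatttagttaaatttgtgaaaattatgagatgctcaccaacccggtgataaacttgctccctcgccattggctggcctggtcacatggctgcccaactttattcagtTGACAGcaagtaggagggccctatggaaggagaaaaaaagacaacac
HOXA13: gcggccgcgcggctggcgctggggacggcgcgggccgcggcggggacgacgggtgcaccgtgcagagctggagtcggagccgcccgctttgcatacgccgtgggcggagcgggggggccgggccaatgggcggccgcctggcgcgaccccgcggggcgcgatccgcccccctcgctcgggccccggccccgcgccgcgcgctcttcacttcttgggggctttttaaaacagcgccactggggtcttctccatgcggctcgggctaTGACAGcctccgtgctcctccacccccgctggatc
HOXD11: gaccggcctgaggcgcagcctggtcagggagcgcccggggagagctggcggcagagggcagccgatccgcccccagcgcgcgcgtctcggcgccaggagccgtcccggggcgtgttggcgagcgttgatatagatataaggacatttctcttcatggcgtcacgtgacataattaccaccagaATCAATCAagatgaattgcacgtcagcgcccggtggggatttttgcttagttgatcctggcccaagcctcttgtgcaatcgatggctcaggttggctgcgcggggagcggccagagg
HOXD12: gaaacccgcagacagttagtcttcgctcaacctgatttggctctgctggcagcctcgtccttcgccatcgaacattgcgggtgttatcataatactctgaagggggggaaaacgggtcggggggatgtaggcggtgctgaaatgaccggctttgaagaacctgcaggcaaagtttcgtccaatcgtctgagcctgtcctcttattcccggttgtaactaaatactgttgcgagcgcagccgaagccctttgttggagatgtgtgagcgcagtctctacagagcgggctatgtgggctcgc
HOXA4: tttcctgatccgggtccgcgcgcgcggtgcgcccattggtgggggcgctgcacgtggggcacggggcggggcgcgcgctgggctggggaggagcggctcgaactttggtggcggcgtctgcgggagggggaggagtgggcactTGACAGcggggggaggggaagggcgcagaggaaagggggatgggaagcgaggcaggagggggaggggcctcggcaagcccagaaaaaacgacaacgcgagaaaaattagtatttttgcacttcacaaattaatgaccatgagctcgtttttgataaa

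The HOXD4 window held a GGAATG and a TGACAG, the HOXA13 and HOXA4 windows a TGACAG each, and the HOXD11 window the reverse complement of TGATNNAT. The HOXD1 and HOXD12 windows held none of the 4 motifs. RefSeq windows were at hand for 38 of the 65 members, 58 windows in all because some genes have several start sites. GGAATG stood in 20.7% of these and in 14% of all 35116 windows, TGANTCA in 8.62% and 7.71%, TGATNNAT in 13.8% and 7.4%, and TGACAG in 15.5% and 15.8%. The members with GGAATG were HOXA3, HOXA10, HOXC4, HOXC5, HOXD4, HOXD8, HOXD10, HOXD13, TGIF1 and TGIF2, of which TGIF1, TGIF2, HOXD4 and HOXD10 were higher, HOXA3, HOXD8 and HOXD13 lower, and HOXA10, HOXC4 and HOXC5 not called. HOXC4 and HOXC5 share 1 window. A match is only a run of letters, and the median GC content differed between the sets, at 62.5% in the members' windows and 58.7% in all windows.

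In the HOXA cluster more of the genes described here were lower than higher. Of 10 genes, 5 were lower and 2 higher, and HOXA2, HOXA6 and HOXA10 did not pass. The called share was 70%, beside 55.8% of all genes tested. HOXA4 had values of 164, 184 and 166 in the siTAZ libraries, against 282, 253 and 363 in the siNT libraries. It fell 1.74-fold, and siNT replicate 3 stood above its group (-0.78 in log2 with SE 0.12, adjusted p = 2.6e-05 in limma). HOXA9, best known from blood progenitors and leukaemia, had values of 1509, 1542 and 1528 in the siTAZ libraries, against 2448, 2361 and 2239 in the siNT libraries. It fell 1.54-fold with no overlap (-0.62 in log2 with SE 0.05, adjusted p = 2.5e-08 in limma).

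HOXA13, which patterns the distal limb, hindgut and genital tract, was higher. Its values were 256, 307 and 322 in the siTAZ libraries, against 159, 162 and 146 in the siNT libraries, a rise of 1.89-fold in which every siTAZ library exceeded every siNT library (0.91 in log2 with SE 0.10, adjusted p = 1.2e-06 in limma). HOXA5, a regulator of lung development, also rose, with a mean of 1116 ± 59.1 in siTAZ against 838 ± 49.8 in siNT (0.41 in log2, adjusted p = 3.6e-05 in limma). HOXA3 averaged 935 ± 39.3 in siTAZ against 1303 ± 18.2 in siNT and fell 1.39-fold, and HOXA11 averaged 1158 ± 2.15 in siTAZ against 1503 ± 34 in siNT and fell 1.3-fold. HOXA7 averaged 1581 ± 19.2 in siTAZ against 1775 ± 18.5 in siNT (-0.17 in log2, adjusted p = 0.0088 in limma), and with values scaled to equal library totals its call was lost (adjusted p = 0.060).

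HOXA10, a gene needed in the uterus, is the member of this cluster with the highest read level that did not pass. It had 2124, 2075 and 2081 in the siTAZ libraries, against 2146, 2137 and 2083 in the siNT libraries, and the groups overlapped (-0.02 in log2 with SE 0.05, adjusted p = 0.75 in limma). HOXA6 averaged 394 ± 19.4 in siTAZ against 417 ± 30.3 in siNT and HOXA2 88.4 ± 8.62 in siTAZ against 88.6 ± 6.22 in siNT, with SEs of their log2 fold changes of 0.08 and 0.14.

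**Figure D2:**
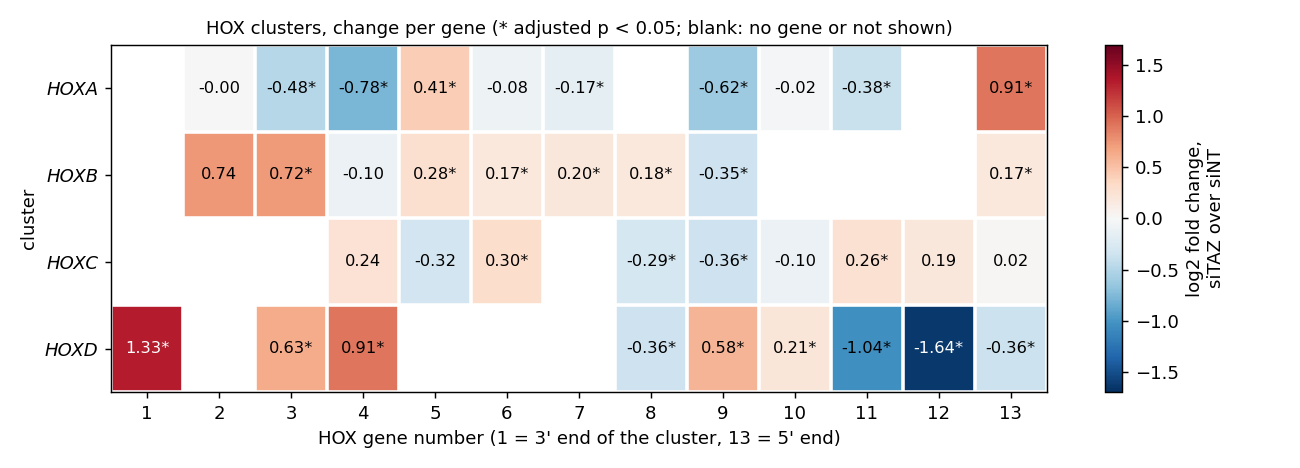
Log2 fold change (siTAZ over siNT) of 37 HOX genes, with clusters as rows and gene numbers from the 3′ end to the 5′ end as columns; an asterisk marks a limma adjusted p under 0.05 over all genes, with 3 libraries per group. HOXA13 (0.91) and HOXD13 (-0.36), at the same position of different clusters, have opposite signs, and so do HOXA4 (-0.78) and HOXD4 (0.91).

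In the HOXB cluster, of 9 genes listed, 6 were higher and 1 lower, and HOXB2 and HOXB4 did not pass. The called share was 77.8%, beside 55.8% of all genes tested. HOXB3 had the largest called change of the cluster, with values of 1603, 1878 and 1574 in the siTAZ libraries, against 1057, 1030 and 978 in the siNT libraries. All siTAZ libraries were above the siNT libraries, with siTAZ replicate 2 the highest, and the rise was 1.65-fold (0.72 in log2 with SE 0.07, adjusted p = 1.1e-07 in limma). HOXB5, HOXB6, HOXB7 and HOXB8, at central positions of the cluster, rose 1.21-fold, 1.13-fold, 1.15-fold and 1.14-fold. HOXB8 averaged 2271 ± 4.33 in siTAZ against 2001 ± 82.5 in siNT. HOXB9 fell 1.28-fold, with a mean of 1873 ± 72.8 in siTAZ against 2393 ± 22.9 in siNT (-0.35 in log2, adjusted p = 1.3e-05 in limma).

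HOXB13, known for its role in prostate and hindgut, averaged 1040 ± 45.1 in siTAZ against 923 ± 61.2 in siNT (0.17 in log2, adjusted p = 0.029 in limma). Its call was lost without siTAZ replicate 1 or 2 or siNT replicate 1 or 3 (adjusted p of 0.069 to 0.11). The call of HOXB6 was lost without siNT replicate 3 (adjusted p = 0.070) and that of HOXB7 without siNT replicate 2 (adjusted p = 0.063). HOXB4 averaged 405 ± 17.1 in siTAZ against 433 ± 20.7 in siNT. HOXB2 was scarce, with 28 reads over the siTAZ libraries and 13 over the siNT libraries.

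In the HOXC cluster, 5 of 9 genes did not pass the test. Of the others, 2 were higher and 2 lower, and no HOXC gene reached 0.5 in log2 with a call. The called share was 44.4%, beside 55.8% of all genes tested. HOXC6 averaged 868 ± 7.85 in siTAZ against 707 ± 27.8 in siNT and rose 1.23-fold, and HOXC11 averaged 498 ± 21.5 in siTAZ against 415 ± 5.01 in siNT and rose 1.2-fold. HOXC8 averaged 202 ± 7.14 in siTAZ against 248 ± 17.2 in siNT and HOXC9 191 ± 3.83 in siTAZ against 246 ± 25.4 in siNT, falls of 1.23-fold and 1.29-fold. The call of HOXC8 was lost without siTAZ replicate 2 (adjusted p = 0.054) and without siNT replicate 1 (adjusted p = 0.051).

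HOXC10 was the most abundant HOXC gene, both in reads and per length. It had 2198, 2213 and 2192 in the siTAZ libraries, against 2317, 2392 and 2356 in the siNT libraries. The groups did not overlap, but the gene did not pass the test (-0.10 in log2 with SE 0.05, adjusted p = 0.09 in limma). HOXC13, a hair and nail gene, averaged 264 ± 29.1 in siTAZ against 259 ± 23.4 in siNT. HOXC4, HOXC5 and HOXC12 had means of 10.0 to 33.9 in the groups, with SEs of 0.28 to 0.37 in log2.

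Genes with the same number did not move as a unit. Among pairs of called HOX genes that share a number, 9 of 23 moved the same way and 14 opposite ways. A gene can stand in several of these pairs, so they are not independent, and their share was not tested. Called genes were also paired with the next called gene of their cluster in number order, skipping any uncalled gene between them. Of these 24 pairs, 14 moved the same way. By position, 7 of 15 HOX genes numbered 4 to 8 were higher and 4 lower, and 5 of 16 numbered 9 to 13 were higher and 7 lower. The called shares were 73.3% and 75%, beside 55.8% of all genes tested (28.3% higher and 27.5% lower). Genes numbered 1 to 3 are not part of this count, so it gives no trend along the clusters. The summed values of all 38 HOX genes were 27738 ± 342 in siTAZ and 28662 ± 282 in siNT (SD, n = 3 each), between 0.0925% and 0.0958% of reads in every library. The sum was 9614 ± 119 in siTAZ against 11658 ± 116 in siNT for HOXA and 10905 ± 227 in siTAZ against 9936 ± 168 in siNT for HOXB. It was 4283 ± 77.1 in siTAZ against 4289 ± 34.9 in siNT for HOXC and 2936 ± 45.6 in siTAZ against 2780 ± 24.5 in siNT for HOXD. These sums describe the clusters and were given no test.

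Levels can be set against each other only per length, here as the mean value per kb of annotated exon. HOXB8 and HOXC10 had the highest HOX levels, at 1107 in siTAZ against 975 in siNT for HOXB8 and 944 in siTAZ against 1010 in siNT for HOXC10. The order was not the same in both groups: HOXB9 stood at 726 in siTAZ against 927 in siNT and HOXB6 at 834 in siTAZ against 740.3 in siNT. In HOXA, HOXA9 was the highest in siNT, whereas HOXA7 and HOXA5 were the highest in siTAZ, at 656 and 654, a gap within the SD of HOXA5. Exon lengths are of GENCODE release 29. Where the bounds of a gene overlap those of others in its cluster, as for HOXA3 and HOXB3, the level per kb is approximate.

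**Figure D3:**
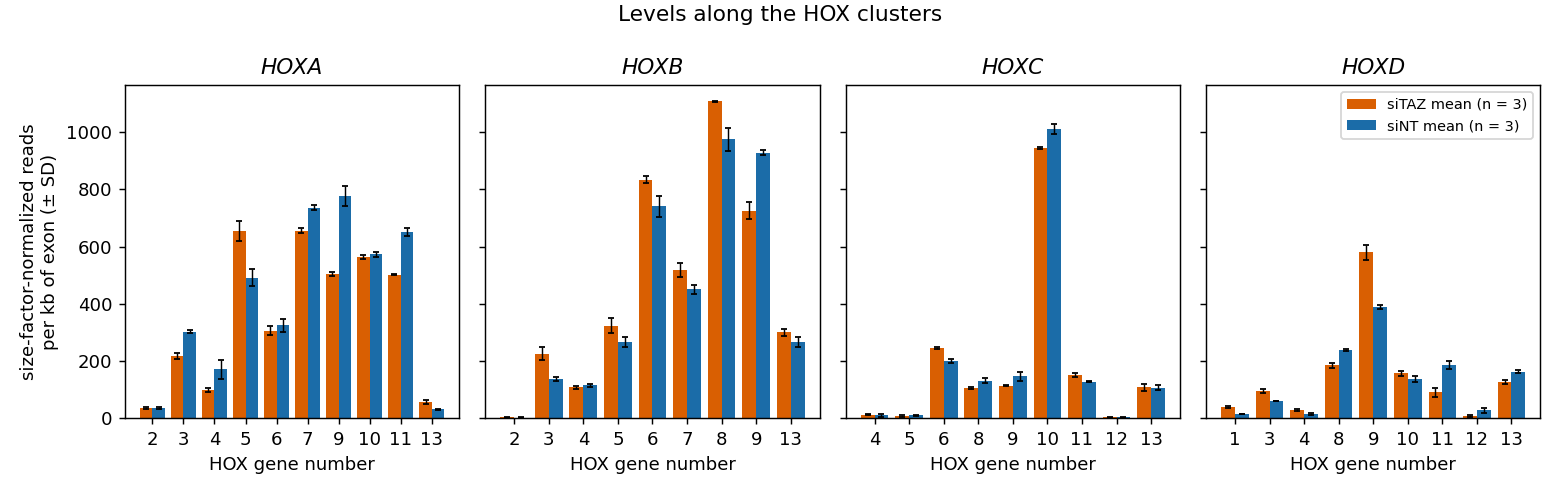
Mean level per kb of exon (vertical axis, size-factor-normalized reads) of 37 HOX genes by cluster and number, siTAZ left of siNT; error bars are the SD of 3 libraries. HOXB8 is the highest in siTAZ, at 1107, and HOXC10 the highest in siNT, at 1010.

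Among the HOX co-factors, all 3 MEIS genes were higher and PBX3 was lower. Of all genes with a mean of at least 100, as these have, 32.5% were called higher and 33.7% lower. MEIS1, MEIS2 and MEIS3, which join PBX and HOX on DNA, rose 1.32-fold, 1.21-fold and 1.4-fold. MEIS2 was the most abundant in reads, with a mean of 3247 ± 154 in siTAZ against 2685 ± 115 in siNT (0.27 in log2, adjusted p = 0.00027 in limma), MEIS3 averaged 822 ± 38.2 in siTAZ against 588 ± 12.8 in siNT (0.48 in log2, adjusted p = 6.3e-06 in limma) and MEIS1 736 ± 44.7 in siTAZ against 559 ± 20.5 in siNT. PBX3, a co-factor studied in leukaemia together with HOXA9, had values of 437, 448 and 442 in the siTAZ libraries, against 594, 671 and 674 in the siNT libraries. It fell 1.46-fold and the groups were apart (-0.54 in log2 with SE 0.07, adjusted p = 6.0e-06 in limma).

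PBX2 and PKNOX1, a MEIS-related partner of PBX, did not pass. PBX2 had 1460, 1371 and 1356 in the siTAZ libraries, against 1405, 1422 and 1457 in the siNT libraries, with overlapping groups (-0.03 in log2 with SE 0.05, adjusted p = 0.62 in limma). PKNOX1 had 1076, 1156 and 1162 in the siTAZ libraries, against 1125, 1150 and 1189 in the siNT libraries, again with overlap (-0.03 in log2 with SE 0.06, adjusted p = 0.68 in limma). PBX4 was low, at 44.9 ± 14.3 in siTAZ against 39.6 ± 11.4 in siNT.

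TGIF and IRX genes, TALE homeobox genes of other branches, were all higher where listed. TGIF1 and TGIF2, co-repressors of SMAD and retinoid signalling, averaged 1748 ± 57.6 in siTAZ against 1540 ± 45.9 in siNT and 2450 ± 50.2 in siTAZ against 1965 ± 80.9 in siNT, rises of 1.13-fold and 1.25-fold. IRX3 averaged 602 ± 12.4 in siTAZ against 439.9 ± 18.8 in siNT and IRX5, its neighbour in the genome, 404 ± 16.5 in siTAZ against 332 ± 9.98 in siNT, rises of 1.37-fold and 1.22-fold. No library of one group lay within the range of the other for these 4 genes. Of all genes with a mean of at least 100, 32.5% were called higher and 70.1% had groups that did not overlap.

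In the sine oculis family, whose proteins act with EYA proteins in sense organs, muscle and kidney, SIX4 fell and the scarce SIX3 rose. SIX4 averaged 694 ± 15.4 in siTAZ against 858 ± 48.4 in siNT, a fall of 1.24-fold (-0.30 in log2, adjusted p = 0.00063 in limma). SIX3, a forebrain and eye gene, had 5, 11 and 10 reads in the siTAZ libraries and 1, 2 and 0 in the siNT libraries. The ratio, corrected for size factors, was 7.31 with an exact 95% interval of 2.24 to 37.7 that covers counting error only (2.22 in log2 with SE 0.58, adjusted p = 0.0037 in limma), and the fitted log2 fold change was 0.69 with a pseudocount of 10.

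SIX2, a nephron progenitor gene, and SIX5 lay next to the threshold. SIX2 had 1308, 1230 and 1208 in the siTAZ libraries, against 1265, 1503 and 1416 in the siNT libraries, with overlap (-0.16 in log2 with SE 0.07, adjusted p = 0.051 in limma). It passed without siTAZ replicate 1 (adjusted p = 0.016) or siNT replicate 1 (adjusted p = 0.0047). SIX5 averaged 822 ± 62 in siTAZ against 732 ± 38.6 in siNT (0.17 in log2, adjusted p = 0.052 in limma), and it passed in edgeR (adjusted p = 0.048) and without siTAZ replicate 2 (adjusted p = 0.044).

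Of the DLX and MSX genes, known as targets of BMP signalling in limb and face, DLX3 and DLX6 were higher and DLX2, MSX1 and MSX2 lower. DLX1 and DLX2 lie side by side, yet only DLX2 passed the test. DLX2 had values of 3069, 2984 and 3074 in the siTAZ libraries, against 4300, 4598 and 4719 in the siNT libraries and fell 1.49-fold, with all siTAZ libraries low (-0.58 in log2 with SE 0.05, adjusted p = 3.0e-08 in limma). DLX1 had 3748, 3790 and 3824 in the siTAZ libraries, against 3875, 4002 and 3971 in the siNT libraries. Its groups did not overlap, but the change did not pass (-0.06 in log2 with SE 0.04, adjusted p = 0.26 in limma). The difference between the changes of DLX1 and DLX2 was not tested.

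DLX3, a gene of skin, placenta and bone, was scarce, with values of 24.9, 26.6 and 20.5 in the siTAZ libraries, against 8.38, 13.9 and 13.3 in the siNT libraries. It rose 2.03-fold without overlap (0.98 in log2 with SE 0.28, adjusted p = 0.0072 in limma), or by 0.64 in log2 with a pseudocount of 10. DLX6 averaged 56.4 ± 6.68 in siTAZ against 39.9 ± 3.2 in siNT, and its call (0.49 in log2, adjusted p = 0.026 in limma) was lost with DESeq2 (adjusted p = 0.093) and without siTAZ replicate 2 or 3 or siNT replicate 1 or 2 (adjusted p of 0.056 to 0.10). DLX4 averaged 31.9 ± 4.85 in siTAZ against 24.8 ± 4.78 in siNT and did not pass. MSX1 and MSX2 both fell, to 561 ± 5.58 in siTAZ against 689 ± 60.7 in siNT for MSX1 and to 1835 ± 90.5 in siTAZ against 2328 ± 62.7 in siNT for MSX2 (1.23-fold and 1.27-fold).

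LHX6, a LIM homeobox gene known from interneurons, was the one LHX gene at an appreciable level. It had 256, 223 and 257 in the siTAZ libraries, against 166, 151 and 159.5 in the siNT libraries. It rose 1.54-fold and no libraries overlapped (0.62 in log2 with SE 0.10, adjusted p = 5.0e-05 in limma). LHX3 averaged 10.6 ± 1.62 in siTAZ against 10.6 ± 1.05 in siNT and LHX4 8.68 ± 2.83 in siTAZ against 5.28 ± 3.16 in siNT, and neither passed.

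**Figure D4:**
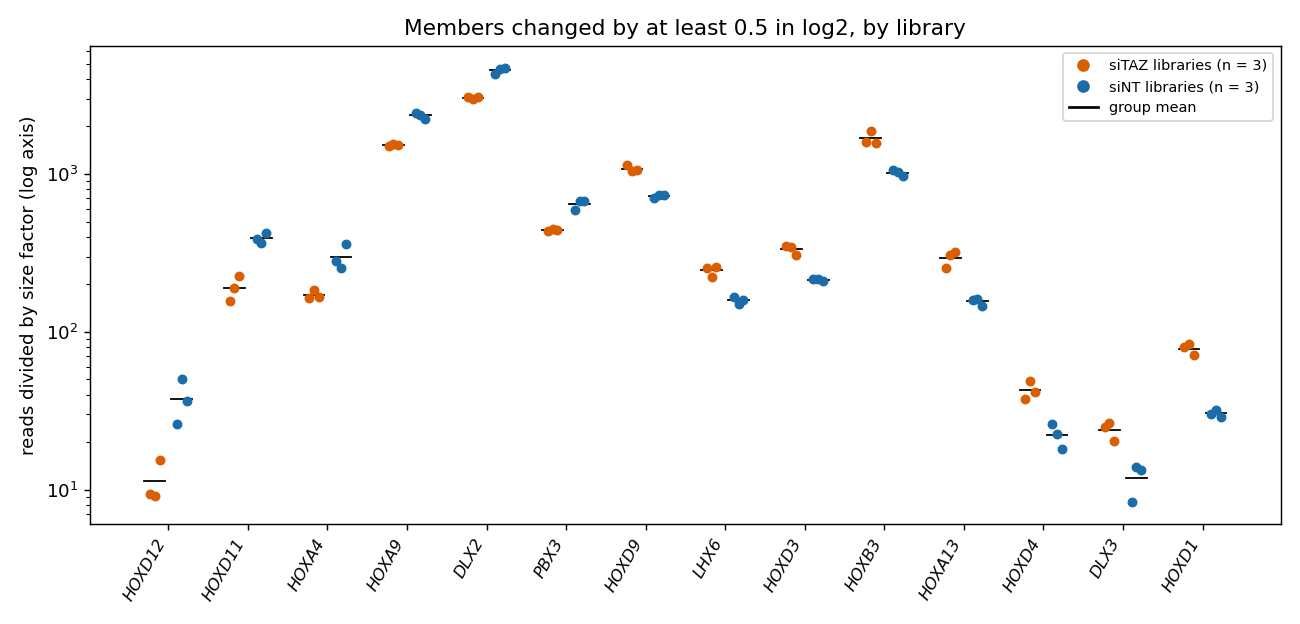
Deposited values (reads divided by the size factor, log axis) of 14 members called with a log2 fold change of at least 0.5 in size and a mean of at least 10, one dot per library with 3 siTAZ libraries left of 3 siNT libraries, and the group mean as a bar. Genes are ordered from HOXD12 (-1.64) to HOXD1 (1.33). In none of them do the groups overlap, which the choice of called genes with large changes makes likely. Over all genes tested, 61.4% had groups that did not overlap.

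Many HOX genes overlap antisense genes, and most pairs in which both genes passed the test had them change in the same direction. In the table, 23 HOX genes overlap 13 listed noncoding genes on the opposite strand, by the gene bounds of the GENCODE annotation. Of the 13, 8 were called (61.5%, beside 55.8% of all genes tested). Of 26 overlapping pairs, 12 had both genes called, 11 of these in the same direction, and in the rest at least 1 gene did not pass. The 12 pairs hold only 7 antisense genes, since HOXB-AS3 stands in 3 of them and HAGLR, HOXA-AS2 and HOXC-AS2 in 2 each. HOXB-AS3 averaged 346 ± 46.4 in siTAZ against 204 ± 3.46 in siNT (0.75 in log2, adjusted p = 5.9e-06 in limma), with HOXB3, HOXB5 and HOXB6 higher too. HAGLR averaged 652 ± 28.7 in siTAZ against 479 ± 8.75 in siNT (0.44 in log2, adjusted p = 2.7e-05 in limma), beside the rises of HOXD1 and HOXD3.

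HOXA-AS2, which overlaps HOXA3 and HOXA4, averaged 303 ± 14.6 in siTAZ against 391 ± 14.5 in siNT. HOXA10-AS averaged 255 ± 13.4 in siTAZ against 327 ± 27.6 in siNT, HOXA11-AS 224 ± 20.6 in siTAZ against 304 ± 27.5 in siNT and HOXC-AS2 24.8 ± 4.51 in siTAZ against 42.1 ± 2.48 in siNT, and all of these were called lower. The pair that moved oppositely was HOXC6, higher, with HOXC-AS2. HOTTIP, over HOXA13, averaged 21 ± 4.92 in siTAZ against 16.1 ± 7.88 in siNT and HOTAIR, over HOXC11, 58.2 ± 8.41 in siTAZ against 63.9 ± 6.69 in siNT, and neither passed. HOXA-AS3 (0.19 in log2) and HOXD-AS2 (-0.04 in log2) did not pass either. HOXA-AS3 overlaps HOXA3, HOXA4 and HOXA7, called lower, and HOXA5, called higher. HOXD-AS2 overlaps HOXD3 and HOXD9, called higher, and HOXD8, called lower. HOXA10-AS also overlaps HOXA10, and HOXB-AS3 also overlaps HOXB4, and neither HOX gene passed. The library kit keeps strand, but whether strand was used in the counting is a step not given in the sources used here. Reads in stretches that a HOX gene shares with its antisense partner may therefore not be kept apart. Strand would not separate HOX genes that overlap on the same strand. Overlap was taken from gene bounds, introns included, and how far exons overlap was not measured.

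**Figure D5:**
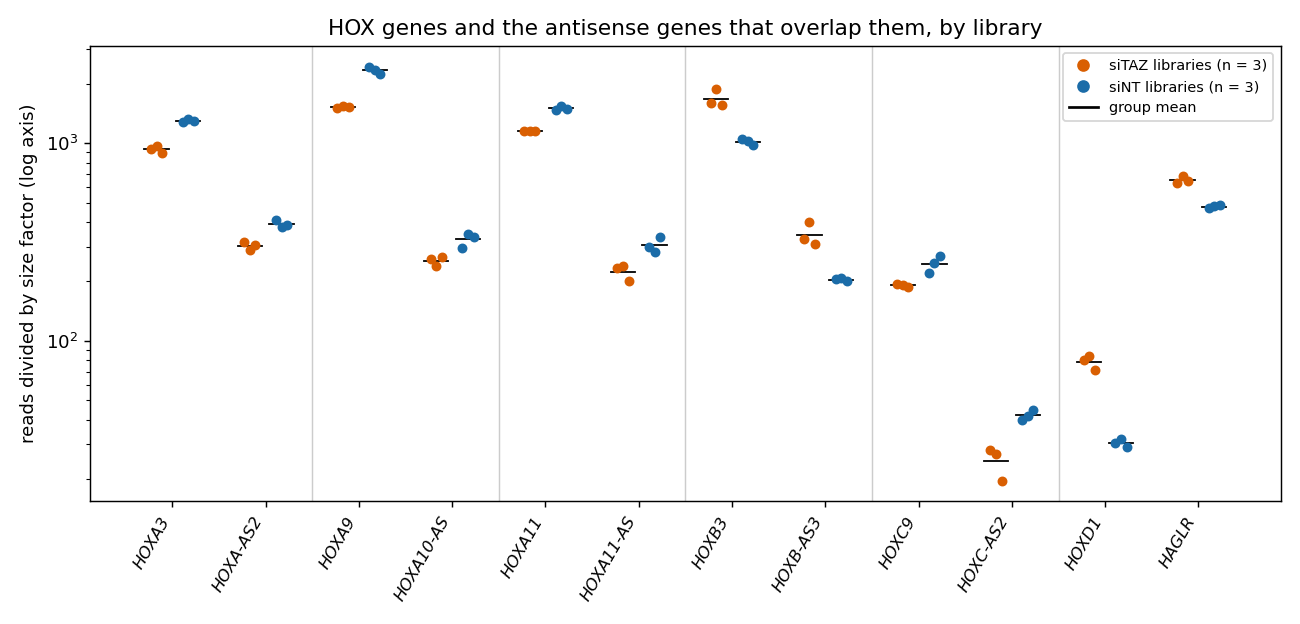
Deposited values (reads divided by the size factor, log axis) of 6 HOX genes, each beside an overlapping antisense gene, one dot per library with 3 siTAZ libraries left of 3 siNT libraries and the mean as a bar. The 6 pairs were picked from the 11 in which both genes were called in the same direction, so their agreement is by choice. They were lower in siTAZ for HOXA3, HOXA9, HOXA11 and HOXC9 and higher for HOXB3 and HOXD1. HOXC6, which moved opposite to HOXC-AS2, and pairs with an uncalled gene are not drawn.

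Genes that regulate homeobox genes or work with their proteins were counted in 8 lists, to be read beside the 28.3% of all genes called higher and 27.5% called lower. Of 25 listed Polycomb and Trithorax genes, which keep HOX genes silent or active, 7 were higher, 8 lower and 10 did not pass (median log2 fold change -0.02). EZH1, a histone methyltransferase, averaged 709 ± 33.8 in siTAZ against 417 ± 22 in siNT and rose 1.7-fold. JARID2, BMI1 and PHF19, other Polycomb genes, fell 1.39-fold, 1.37-fold and 1.29-fold.

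Retinoic acid is a known inducer of HOX genes. Of 17 listed genes of its pathway, 13 were higher, 1 was lower and 3 did not pass (median 0.54). ALDH1A1 and ALDH1A3, which make retinoic acid, averaged 703 ± 8.3 in siTAZ against 212 ± 26.2 in siNT and 4569 ± 111 in siTAZ against 2345 ± 78.4 in siNT (3.31-fold and 1.95-fold higher). DHRS3, a reductase that turns retinaldehyde back to retinol, and STRA6, the retinol uptake receptor, rose 1.51-fold and 1.46-fold. Among 14 genes of BMP input and readout, 7 were higher, 1 was lower (SMAD5) and 6 did not pass (median 0.27). ID1, the gene of this list with the most reads, averaged 11792 ± 649 in siTAZ against 11855 ± 479 in siNT and did not pass. ID3 averaged 8926 ± 364 in siTAZ against 5395 ± 371 in siNT, and ID2, BMP2 and SMAD1 rose 1.53-fold, 1.44-fold and 1.56-fold.

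Of 6 listed partners of LIM homeodomain proteins, 4 were higher and 2 lower. The adaptors LDB1 and LDB2 rose 1.36-fold and 1.78-fold, SSBP2 rose 1.88-fold and SSBP4 fell 1.47-fold. Among 6 listed EYA, TLE and related partners of SIX4 and its relatives, the co-repressor TLE3 rose 1.37-fold, TLE1 fell 1.3-fold, EYA3 fell 1.18-fold and 3 did not pass. Of 8 TGIF partners, SMAD3 and SMAD4 fell 1.28-fold and 1.24-fold and 6 did not pass. PBXIP1, which restrains PBX proteins, rose 1.31-fold, and geminin (GMNN), which binds HOX proteins, fell 1.17-fold, in a list of 4.

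Other homeobox genes were counted in the same way. Of 42 listed, 19 were higher, 7 lower and 16 did not pass (median 0.17). CDX2, an intestinal homeobox gene that controls HOX genes in the embryo, averaged 844 ± 34.1 in siTAZ against 290.0 ± 27.1 in siNT, 2.91-fold higher (1.54 in log2, adjusted p = 6.9e-11 in limma). PDX1, a gene of the pancreas, rose 2.22-fold. NKX2-5, a cardiac gene, fell 1.93-fold to 461 ± 58.2 in siTAZ against 891 ± 49.2 in siNT.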

How the data were processed

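RNA-seq libraries of 3 siTAZ and 3 siNT samples, grouped by their titles, were analysed. The submitters' processing notes name build hg19 and the tools HTSeq, HISAT2, FastQC and DESeq2, without version, annotation or strand setting. The deposited values are a signal, reads divided by 1 size factor per library: in each library 100% of them came out as whole reads (to 0.001 of a read) once the factor was undone. Totals were 25478595 to 34488196 reads, so low genes carry the largest errors.

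Of 17211 identifiers, 15593 were named from a gene table, 1150 from GENCODE release 29, and 468 stayed unnamed. Limma 3.58.1 (R 4.3.3), with an intensity trend, was fitted to log2(value + 1) of 17204 genes with a mean of at least 1, and p-values were adjusted by Benjamini-Hochberg over all of them. Fold changes in log2 are on that scale and understate changes of low genes. Folds are ratios of group means, and errors are SDs (n = 3 per group). Alternatives were edgeR 4.0.16 (9630 genes called over the table, against 9604 in limma), DESeq2 1.42.0 and limma voom on the recovered reads, another pseudocount, filters and scaling, a replicate block and leaving out each library. The limma, edgeR, DESeq2 and voom tests were also run on simulated counts in which 200 genes were changed. That is far fewer than the 9604 called here, so the simulation cannot vouch for calls where most genes change. Per-sample values and full statistics are given for members called with at least 0.5 in log2 and a mean of at least 10, and for uncalled members with a mean of at least 1000. Up to 4 called genes with the smallest adjusted p are named per partner list, and in the BMP list ID1 and SMAD5 besides. A few genes enter the counts and sums but are not reported here one by one. The members and lists were chosen with earlier results of these data known. Tables and figures were made in Python 3.11.15 with pandas 2.3.3 and matplotlib 3.10.9.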

Additional observations from a re-analysis of the deposited data

How the results depend on the processing

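Over 14 alternatives, 38 of the 45 called members kept their call wherever they had a value, and no called member changed sign. The other 7 (DLX6, HOXA7, HOXB6, HOXB7, HOXB13, HOXC8 and HOXD10) lost it in at least 1 alternative, and SIX2 and SIX5 gained one in some. Members called higher numbered 24 to 28 and lower 17 to 19, and the counts over the table and the partner lists stayed within 1.5 times. Leaving out each library in turn gave 24 to 26 higher, 17 to 19 lower, 8540 to 9674 genes and 66 to 72 partner genes. No pairing by library number was seen: the correlation of same-numbered deviations was -0.085, -0.022 and 0.0061, and no siTAZ library correlated best with its own number. These correlations cannot show whether same-numbered libraries were prepared together. With a replicate block 24 members were higher and 17 lower, 8701 genes and 65 partner genes were called, and HOXA7, HOXB7, HOXB13 and HOXD10 were not (adjusted p of 0.050 to 0.086). Only uncalled members changed sign. HOXA2 took log2 fold changes of 0.0135 in edgeR, 0.0037 in DESeq2, 0.0121 in voom and 0.0484 with equal library totals, which gave 0.0338 for HOXA10, 0.0456 for LHX3, 0.0197 for PBX2 and 0.0233 for PKNOX1. That scaling moves the median of all genes to 0.052. With 1 library left out, the ranges were -0.0741 to 0.0649 for HOXA2, -0.1076 to 0.5605 for HOXC4, -0.1101 to 0.4707 for HOXC12, -0.0675 to 0.0751 for HOXC13, -0.1121 to 0.0756 for LHX3, -0.0759 to 0.34 for PBX4 and -0.0496 to 0.0053 for PKNOX1. At 1 CPM in 3 libraries 9 scarce members had no value. For these losses, gains and sign changes the cause was not tested.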
